A study of Rattus norvegicus with 64 samples.

Results

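Of the genes counted in rat whole blood, 10 that neutrophils use for granule contents and for mature surface receptors were followed here across treatments. They were picked by symbol, from the name that stands before the identifier of each gene, and are 10 of the 26405 genes listed for any rat. All 10 were listed with 1 identifier each for every one of the 64 rats. They are S100a8 and S100a9, whose products form calprotectin, the granule protease gene Elane, the granule peroxidase gene Mpo, the specific granule genes Camp and Lcn2, the matrix metalloproteinase genes Mmp8 and Mmp9, and the receptor genes Csf3r and Fpr1. RNA came from the blood of adult male Sprague-Dawley rats aged 85 to 90 days, each given 4 injections spaced 2 h apart, with cardiac blood taken 3 h after the last one. The saline controls (label Saline Control, 6 rats) and the amphetamine rats labelled Amphetamine Hyperthermic (22 rats, called AMPH hyperthermic here) were kept at 22.5 C. The cool saline rats (Saline Control Cool Environment, 5 rats) and the rats labelled Amphetamine Noromothermic (15 rats, called AMPH cool here) were kept at 16 C. The heat rats (Saline Hyperthermic-EIH, 16 rats) received saline at 39 C. Every rat was thus injected and handled, and no group was left untouched. By the study's methods, AMPH rats whose body temperature climbed too far were cooled on crushed ice, and body temperatures and blood cell counts were not analysed here. Blood drawn through the heart can carry cardiac muscle, so 5 rats with more than 5000 counts of the muscle gene Mb were left out, as the study did for its controls, which left 4, 22, 5, 13 and 15 rats in the order given and 59 in all.

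Neutrophils fill their granules in order while they mature in the bone marrow. The azurophil granules, which hold Mpo and Elane, form first in promyelocytes. The specific granules, which hold Camp, Lcn2 and Mmp8, form later in myelocytes, and the gelatinase granules with Mmp9 later still. Transcripts of the early granule proteins are largely lost before the cell leaves the marrow, whereas S100a8 and S100a9 stay among the most abundant transcripts of the circulating cell. Csf3r, the receptor for granulocyte colony-stimulating factor, and Fpr1, which senses formylated bacterial peptides, are read as marks of the mature cell. Stress hormones and heat are known to move neutrophils between the marrow, the vessel wall and the free blood.

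The sequences before the transcription starts of 2 members are shown because both were called in a comparison with the heat rats, though against different groups. Csf3r was called higher in heat than in the saline controls, a call that some alternatives end, and S100a9 was called lower in heat than in the AMPH cool rats. They are the 250 bases upstream of the RefSeq start on the rat build GRCr8, which is not the build of the counts, and they cover chr2:178490623-178490872 on the minus strand for S100a9 and chr5:143582970-143583219 on the plus strand for Csf3r. Both windows lie 5′ of the first exon. Promoters of 7 of the 10 members were in the table used. Capitals mark matches on either strand to a TATA box (TATAAA), the PU.1 core (GAGGAA) and a C/EBP motif (TTGCNNAA), motifs of factors that act in granulocyte genes.
S100a9: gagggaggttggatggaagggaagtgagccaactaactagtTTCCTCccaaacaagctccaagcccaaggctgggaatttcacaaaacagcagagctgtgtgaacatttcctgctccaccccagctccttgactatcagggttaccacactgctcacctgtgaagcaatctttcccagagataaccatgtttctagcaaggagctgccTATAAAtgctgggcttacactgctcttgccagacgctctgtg
Csf3r: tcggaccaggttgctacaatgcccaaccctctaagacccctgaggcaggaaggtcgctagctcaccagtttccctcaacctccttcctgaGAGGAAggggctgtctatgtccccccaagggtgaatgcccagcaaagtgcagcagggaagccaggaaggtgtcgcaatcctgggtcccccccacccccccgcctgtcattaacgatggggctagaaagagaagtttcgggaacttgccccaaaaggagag
The S100a9 window held a TATA box that began at base -42 from the start and, on the opposite strand, a PU.1 core at -209. The Csf3r window held a PU.1 core at -160 and no TATAAA. Of 33469 rat promoter windows of the same length, 12.9% held TATAAA, 23.3% GAGGAA and 9.22% TTGCNNAA. The C/EBP letters were found at -191 before Lcn2 and at -101 and -46 before Mmp8, and not in the windows of S100a9 or Csf3r. A match describes the letters of a window and not the binding of a factor.

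Total counts per rat ran from 19055615 to 40530319, and S100a9 alone took a median of 0.348% of the counts in the saline controls and 1.42% in the cool saline rats. Rats of a group differed from each other by far more than sampling noise, with a chi-square per gene of at least 56.2 in every pair. The rats were deposited under 14 codes that open the file names, and the sources used here do not say what these codes stand for. The saline controls shared codes with AMPH hyperthermic rats only, all 5 cool saline rats had 1 code, which held 1 rat of each hot or AMPH group, and the heat rats shared no code with the saline controls, so code and group cannot be told apart between the saline controls and either the heat or the cool saline rats. The tissue was checked against markers of its cell types. All 6 neutrophil markers, 5 of them among the 10 genes, were present in every group, and their summed level ran from 32241 to 420717 normalized counts in the saline controls, from 355707 to 801932 in the cool saline rats, from 240979 to 718136 in the AMPH cool rats, from 48441 to 991154 in the AMPH hyperthermic rats and from 58713 to 325764 in the heat rats. S100a8 and S100a9 make up most of this sum in every group, so it largely restates these members and is no independent check. All levels below are counts divided by size factors (DESeq2), called normalized counts, and they compare rats within a gene and not genes with each other. In whole blood, a change in the share of neutrophils and a change in the RNA of each neutrophil cannot be told apart.

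A first look at each gene across the groups showed that 8 of the 10 had their lowest median in the saline controls and that calprotectin and Camp were high in the cool saline rats. The groups were wide, above all the 4 saline controls. Controls 19 and 21 lay above controls 17 and 18 for all 10 genes.

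**Figure D1:**
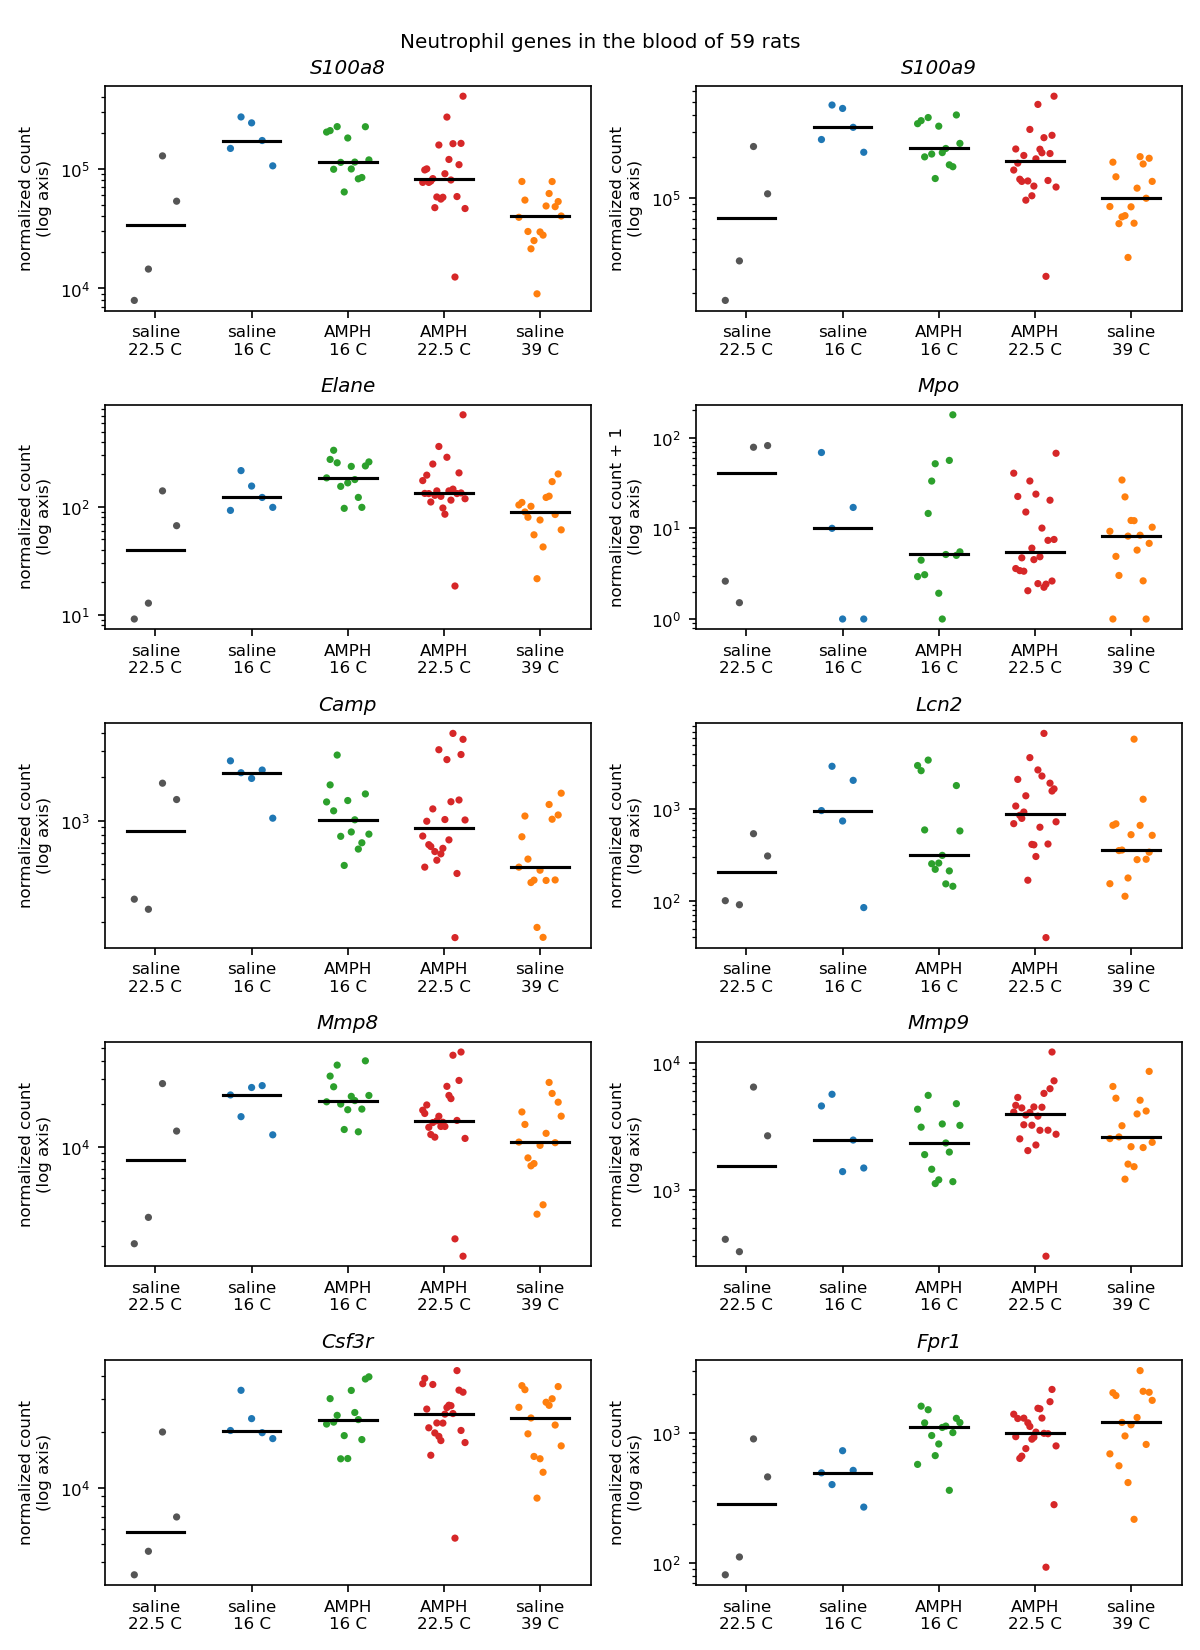
Normalized counts (log axis, plus 1 for Mpo) of the 10 genes in 59 rats, 1 point per rat, with the median of each group as a black line and the groups named by injection and room temperature. S100a8 medians run from 34014 in saline at 22.5 C to 171792 in saline at 16 C, and the saline 39 C rats have the highest Fpr1 median, 1204.

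S100a8 (ENSRNOG00000011557) and S100a9 (ENSRNOG00000011483) encode the calcium-binding pair that makes up much of the neutrophil cytosol. S100a8 in the saline controls 17, 18, 19 and 21 was 7950, 14518, 127867 and 53511 normalized counts. In the 5 cool saline rats S100a8 was 147554, 270186, 241155, 171792 and 105578. Only control 19 thus reached the range of the cool saline rats. S100a8 in the AMPH cool rats ran from 63902 to 224315 with a median of 113483. In the AMPH hyperthermic rats the range was 12461 to 402534 and the median 81506. In the heat rats S100a8 ran from 9019 to 78170 with a median of 40253. The highest heat rat lay below the lowest cool saline rat and inside the lower end of the AMPH cool range. Heat and cool saline rats were not tested against each other. How many of all genes also lay apart between them was not counted.

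S100a9 in the saline controls was 17642, 34357, 236720 and 106572 normalized counts. In the cool saline rats it was 266415, 476837, 450068, 327234 and 214861. The AMPH cool rats ran from 137943 to 403188 (median 229005), the AMPH hyperthermic rats from 26467 to 553250 (median 185599) and the heat rats from 36416 to 199512 (median 98886). The order of the group medians was the same for both genes, from the saline controls through heat, AMPH hyperthermic and AMPH cool to cool saline, and the highest median was 5.05 times the lowest for S100a8 and 4.64 times for S100a9. AMPH hyperthermic rat 17 was the lowest and rat 21 the highest of their group for both genes. No neighbours in this order were called different by edgeR in the tests that follow.

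Elane (ENSRNOG00000033685) encodes neutrophil elastase, a serine protease of the azurophil granule. Its transcript was scarce, at 9.15, 12.8, 140.8 and 67.0 normalized counts in saline controls 17, 18, 19 and 21. In the cool saline rats Elane was 92.9, 217.1, 156.1, 122.4 and 99.1. The range was 97.0 to 334.9 (median 185.9) in the AMPH cool rats, 18.5 to 713.9 (median 134.1) in the AMPH hyperthermic rats and 21.6 to 202.0 (median 89.8) in the heat rats. The AMPH cool rats had the highest median, after saline control, heat, cool saline and AMPH hyperthermic in that order. Cool saline rats were not tested against heat or AMPH hyperthermic rats, and the other neighbours were not called different.

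Mpo (ENSRNOG00000008310) encodes myeloperoxidase, the enzyme that makes hypochlorous acid and the classic mark of the azurophil granule. It was close to nothing in most rats. The saline controls had 1.61, 0.513, 77.4 and 80.8 normalized counts of Mpo, so that rats 19 and 21 held nearly all of it. The cool saline rats had 67.6, 9.00, 0, 16.0 and 0. Mpo was listed at 0 in 2 cool saline rats, 1 AMPH cool rat and 2 heat rats. Medians were 4.15 in the AMPH cool rats (highest 177.6), 4.45 in the AMPH hyperthermic rats (highest 66.3) and 7.21 in the heat rats (highest 33.1). The order of the Mpo medians, lowest in AMPH cool and highest in the saline controls, was thus unlike that of Elane. Its neighbours were not called different where they were tested.

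Other genes from an azurophil list of 5, Serpinb1a aside, had lower medians than Mpo in every group or were not listed for every rat. Prtn3, for proteinase 3, had group medians between 0 and 0.906 normalized counts, and Ctsg, for cathepsin G, between 0 and 0.828. Serpinb1a was on that list as an inhibitor of the granule proteases. Its medians were 1330 in the saline controls, 18465 in cool saline, 16114 in AMPH cool, 14765 in AMPH hyperthermic and 5190 in heat.

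Camp (ENSRNOG00000020733) encodes cathelicidin, an antimicrobial peptide of the specific granule. In the saline controls Camp was 289.0, 246.4, 1806 and 1395 normalized counts. The cool saline rats had 2571, 2131, 1947, 2223 and 1039, of which 4 lay above every saline control. Camp ran from 492.5 to 2817 (median 1013) in the AMPH cool rats, from 157.5 to 3965 (median 886.7) in the AMPH hyperthermic rats and from 158.1 to 1542 (median 479.4) in the heat rats. Camp was the only member whose lowest median was that of the heat rats, and no neighbours in its order were called different.

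Lcn2 (ENSRNOG00000013973) encodes lipocalin 2, which keeps iron from bacteria, and is made by many tissues under inflammation as well as by neutrophils. The saline controls had 100.6, 90.9, 540.0 and 308.7 normalized counts of Lcn2. In the cool saline rats Lcn2 was 964.7, 2930, 742.6, 2059 and 84.6, and rat 5 was lower than every saline control. Lcn2 spread widely in each treated group, from 144.4 to 3424 (median 313.5) in AMPH cool, from 39.8 to 6686 (median 893.0) in AMPH hyperthermic and from 112.4 to 5789 (median 358.4) in heat. The highest heat value belonged to rat 9, whose Camp was the lowest of the heat group.

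Mmp8 (ENSRNOG00000009907), the neutrophil collagenase gene, was at 2082, 3192, 27908 and 12928 normalized counts in the saline controls. In the cool saline rats Mmp8 was 23219, 16330, 26197, 27005 and 12165. The AMPH cool rats ran from 12775 to 40357 (median 21191), the AMPH hyperthermic rats from 1701 to 46564 (median 15314) and the heat rats from 3362 to 28438 (median 10817). The group order was that of S100a8, and again no neighbours were called different by edgeR. AMPH hyperthermic rat 21 had the lowest Mmp8 of its group beside the highest S100a8, and its Fpr1 was 281.1. It was the only rat of its code.

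Mmp9 (ENSRNOG00000017539) encodes gelatinase B. In the saline controls Mmp9 was 405.8, 323.9, 6486 and 2671 normalized counts, and in the cool saline rats 4597, 5687, 1392, 2472 and 1486. Medians were 2344 in AMPH cool (range 1119 to 5576), 3989 in AMPH hyperthermic (298.3 to 12278) and 2616 in heat (1213 to 8628). The Mmp9 median was thus highest in AMPH hyperthermic rats, whereas the Mmp8 median was highest in cool saline rats.

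Csf3r (ENSRNOG00000008759) was at 3405, 4558, 20003 and 6976 normalized counts in the saline controls. In the cool saline rats Csf3r was 20378, 33543, 23609, 19836 and 18431. Control 19 alone reached this range. The AMPH cool rats ran from 14346 to 39645 (median 23328), the AMPH hyperthermic rats from 5365 to 42822 (median 25057) and the heat rats from 8812 to 35532 (median 23800). The 4 groups other than the saline controls had medians between 20378 and 25057, and no neighbours among them were called different.

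Fpr1 (ENSRNOG00000011174) was at 81.3, 111.4, 899.7 and 459.4 normalized counts in the saline controls and at 494.0, 401.1, 730.3, 515.8 and 269.3 in the cool saline rats. Those groups overlapped over most of their range. The AMPH cool rats ran from 362.3 to 1606 (median 1102), the AMPH hyperthermic rats from 93.0 to 2159 (median 1004) and the heat rats from 216.9 to 3013 (median 1204). Fpr1 was the only member with its highest median in the heat rats.

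Differences between groups were tested with edgeR's quasi-likelihood test over all genes tested, with Benjamini-Hochberg adjustment and a threshold of 0.05 on the adjusted p. A gene that passed is called. All fold changes below are on the log2 scale with their standard errors. The saline controls serve 4 of the comparisons and the cool saline rats 3, so these comparisons are not independent of each other. In the 3 comparisons among AMPH cool, AMPH hyperthermic and heat rats, only codes held by both groups were used and the code was a term in the fit. The other comparisons had no code term.

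The first question was what AMPH did at 22.5 C. The 8 AMPH hyperthermic rats whose IDs have the form of the controls' IDs were compared with the 4 saline controls. None of the 10 members was called by edgeR, as none of 12853 genes was (0%), with 2 members and 1335 genes at an unadjusted p under 0.05. DESeq2 called 1 member, Lcn2, and 202 genes. Of the 10 log2 fold changes 9 were positive, with a median of 1.23 against -0.011 over all genes. The largest was that of Lcn2, 2.85 ± 1.01 (adjusted p = 0.431), and those of Csf3r and Elane were 1.53 ± 0.56 (adjusted p = 0.431) and 1.74 ± 0.87 (adjusted p = 0.491). Fpr1 was at 1.40 ± 0.78, S100a8 at 1.30 ± 0.85, S100a9 at 1.16 ± 0.74, Mmp9 at 1.05 ± 0.86, Camp at 0.95 ± 0.78 and Mmp8 at 0.88 ± 0.88. Mpo was the negative one at -1.55 ± 1.16 (adjusted p = 0.564). Without saline control 19 Lcn2 was at 3.51, Elane at 2.71, Csf3r at 2.36 (adjusted p = 0.235), S100a8 at 2.32, Fpr1 at 2.25, Mmp9 at 2.20 and S100a9 at 2.08, still with no member called. Without 1 AMPH rat, Elane was at 1.11 (rat 21 left out), Lcn2 at 2.21 (rat 16) and Mpo at -2.67 (rat 22). With all 22 AMPH hyperthermic rats Csf3r was called at 1.54 (adjusted p = 0.0296), among 804 genes. However, 14 of those rats came from codes and ID forms that no saline control had.

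AMPH at 16 C was compared with saline at 16 C in 13 and 5 rats, of which 1 AMPH cool rat shared the code of the cool saline rats. EdgeR called no member, against 0.444% of 12396 genes, and 2 members were under 0.05 before adjustment. DESeq2 called Fpr1. Fpr1 was 2.12 times as high in AMPH cool as in cool saline rats, with a log2 fold change of 1.08 ± 0.27 (adjusted p = 0.0729). Camp differed the other way, at -0.77 ± 0.30 (adjusted p = 0.216). S100a8 was at -0.44 ± 0.28, S100a9 at -0.41 ± 0.24, Lcn2 at -0.40 ± 0.76, Mmp9 at -0.21 ± 0.38, Csf3r at 0.10 ± 0.22, Mmp8 at 0.15 ± 0.24 and Elane at 0.53 ± 0.27, and the median of the 10 was -0.06. Mpo was at 0.58 ± 1.12, a value that 1 cool saline rat decided, since it was 2.11 without cool saline rat 1 and 0.25 at the least without another.

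Heat was compared with saline at 22.5 C in 15 and 4 rats, which shared no code. Csf3r rose by 1.35 ± 0.44 (adjusted p = 0.0411), 2.55 times. It was the 1 member called, among 16.5% of 12986 genes, so the share of members called was not above that of all genes. The call was lost without saline control 17 (1.10, adjusted p = 0.167), 18 (1.14, adjusted p = 0.147) or 21 (1.25, adjusted p = 0.116) and with no filter on low counts (1.33, adjusted p = 0.0555), and without control 19 the value was 2.16 (adjusted p = 0.00894). Fpr1 was 1.72 ± 0.63 (adjusted p = 0.0633). It passed without control 19, at 2.56 (adjusted p = 0.0252), among 1978 genes, and by DESeq2 (adjusted p = 0.0103), among 3364 genes. Mpo was -2.39 ± 0.83 (adjusted p = 0.0521), with controls 19 and 21 holding nearly all of the Mpo of their group. S100a8 was at -0.31 ± 0.52 (adjusted p = 0.688) and S100a9 at 0.15 ± 0.51 (adjusted p = 0.852), neither called. Whether they differed from Csf3r in this was not tested. Without control 19, S100a8 turned positive (0.70, adjusted p = 0.379) and S100a9 was at 1.06 (adjusted p = 0.177). S100a9 turned negative without control 17 or 18 (-0.19 and -0.14), and Camp was -0.53 ± 0.52 (adjusted p = 0.483). Lcn2 was at 1.58 ± 0.89, Elane at 0.69 ± 0.55, Mmp9 at 0.45 ± 0.60 and Mmp8 at 0.11 ± 0.55. Without control 19 these were 2.22, 1.64, 1.58 and 1.04, none called. Lcn2 was lower by DESeq2, at 0.79. It was also lower, at 0.88, without the rats of code V06504, among them heat rat 9 with 5789 normalized counts.

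Markers of other blood cells moved in the same comparison. All 5 T cell markers were called lower in heat than in the saline controls (median -1.50). So were 3 of 6 natural killer identifiers and 1 of 5 B cell markers. Called higher were 4 of 5 platelet markers and 1 of 6 monocyte markers. The summed T cell level ran from 4765 to 7802 normalized counts in the saline controls and from 1126 to 4669 in the heat rats, and the platelet sum from 16385 to 44453 and from 47398 to 243360. No marker of eosinophils and basophils, erythroid cells or cardiac muscle was called there, and the cardiac sum was at most 383.8 in the saline controls and 1811 in the heat rats. The part of these cells in the Csf3r value was not tested.

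**Figure D2:**
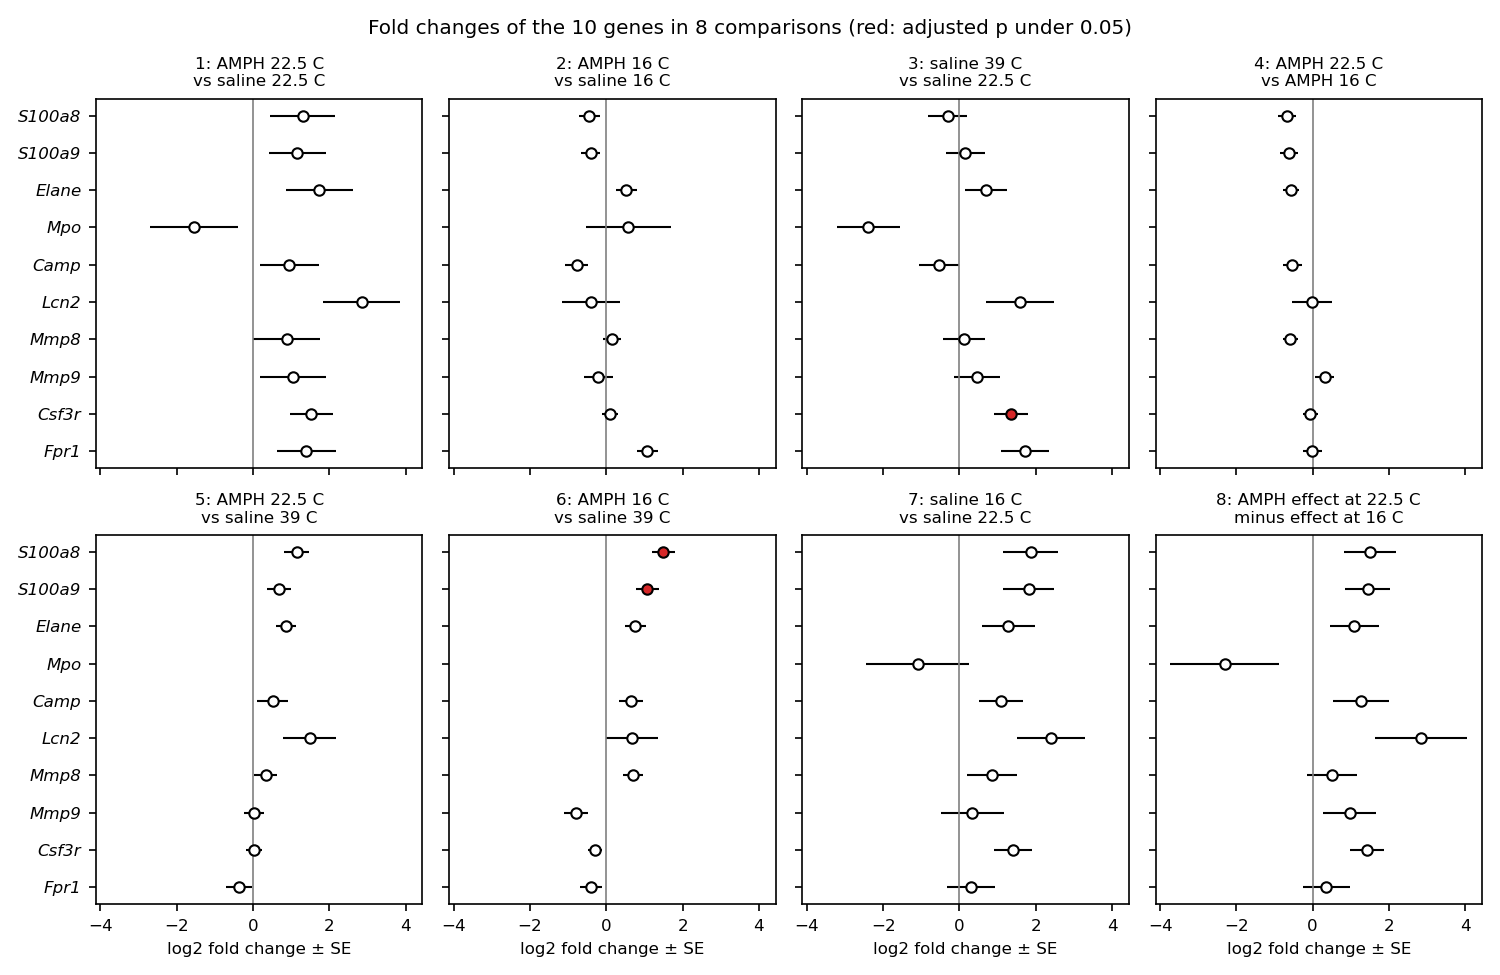
Log2 fold changes with standard errors of the 10 genes in the 8 comparisons, from edgeR. Red points have an adjusted p under 0.05 over all genes, which holds for Csf3r in heat against saline control (panel 3) and for S100a8 and S100a9 in AMPH cool against heat (panel 6), and Mpo is absent from panels 4 to 6, where its counts were too low to be tested.

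AMPH at 22.5 C was set against AMPH at 16 C in 10 and 9 rats of 5 shared codes. No member was called by edgeR, against 15.9% of 12091 genes, although 5 of the 9 members tested were under 0.05 before adjustment. DESeq2 called Mmp8, S100a8 and S100a9, among 2418 genes. The values were -0.67 ± 0.23 for S100a8 (adjusted p = 0.0577), -0.62 ± 0.23 for S100a9 (adjusted p = 0.0721), -0.59 ± 0.20 for Mmp8 (adjusted p = 0.0551) and -0.56 ± 0.21 for Elane (adjusted p = 0.082). In each of the 5 codes the mean log2 level of S100a8, S100a9 and Mmp8 was lower in the AMPH hyperthermic than in the AMPH cool rats, by 0.14 at the least for S100a8. Camp was at -0.54 ± 0.25 (adjusted p = 0.164), Csf3r at -0.06 ± 0.20, Lcn2 at -0.01 ± 0.52, Fpr1 at -0.01 ± 0.25 and Mmp9 at 0.31 ± 0.25. The median of the 9 was -0.54 against 0.007 for all genes.

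AMPH at 22.5 C was set against heat in 10 and 13 rats of 7 shared codes. No member was called by edgeR, against 0.133% of 12055 genes, with 4 of 9 under 0.05 before adjustment. DESeq2 called S100a8, among 262 genes. S100a8 was 1.14 ± 0.33 higher in AMPH hyperthermic rats (adjusted p = 0.167) and was the higher in 7 of 7 codes. Elane was at 0.86 ± 0.27 (adjusted p = 0.188), and Lcn2 at 1.48 ± 0.70 (adjusted p = 0.371), each higher in 7 of 7 codes, while S100a9, at 0.68 ± 0.32 (adjusted p = 0.364), was higher in 5. Csf3r was at 0.02 ± 0.21, a value that turned to -0.08 without the code named next, and Fpr1, at -0.38 ± 0.34, was the only member below 0. Camp was at 0.51 ± 0.41, Mmp8 at 0.33 ± 0.31 and Mmp9 at 0.02 ± 0.26. Without the rats of code V06504, which held 5 of the 15 heat rats, S100a8 was at 1.22 (adjusted p = 0.0927).

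AMPH at 16 C was set against heat in 10 and 7 rats of 5 shared codes. Here S100a8 was higher in the AMPH cool rats by 1.49 ± 0.30 (adjusted p = 0.00456), 2.82 times, and S100a9 by 1.08 ± 0.31 (adjusted p = 0.0315), 2.11 times. They were the 2 members called of 9 tested, against 12.5% of 12096 genes, and 5 of the 9 were under 0.05 before adjustment. DESeq2 called these and Mmp8, among 2140 genes. Both genes were higher in AMPH cool rats in 5 of 5 codes, by 0.831 to 2.91 for S100a8 and by 0.078 to 2.58 for S100a9. Mmp8 was at 0.70 ± 0.26 (adjusted p = 0.0942), Elane at 0.76 ± 0.28 (adjusted p = 0.0881), Lcn2 at 0.67 ± 0.68 (adjusted p = 0.593) and Camp at 0.65 ± 0.31 (adjusted p = 0.201). The receptors and Mmp9 lay on the other side of 0, with Csf3r at -0.29 ± 0.19 (adjusted p = 0.383; 0.11 when all 28 rats entered without a code term), Fpr1 at -0.39 ± 0.29 (adjusted p = 0.449) and Mmp9 at -0.79 ± 0.32 (adjusted p = 0.13). Of other cell types, 2 of 6 monocyte markers and 1 of 5 B cell markers were called lower in AMPH cool rats. Called higher there were 1 of 6 natural killer identifiers and 1 of 4 eosinophil or basophil markers. These lists were split. Fold changes were positive for 2 monocyte markers, 1 B cell marker, 3 natural killer identifiers and 2 eosinophil or basophil markers. The summed monocyte level ran from 9114 to 16602 normalized counts in the AMPH cool rats and from 5330 to 29455 in the heat rats, and the part of these cells was not tested.

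The saline groups at 16 C and 22.5 C were compared in 5 and 4 rats, which shared no code. EdgeR called no member, against 0.00817% of 12238 genes, 1 gene, with 4 members and 3197 genes under 0.05 before adjustment, and DESeq2 called S100a9 and 1376 genes and gave Csf3r no adjusted p. S100a8 was at 1.87 ± 0.72 (adjusted p = 0.144), S100a9 at 1.81 ± 0.67 (adjusted p = 0.134), Csf3r at 1.41 ± 0.50 (adjusted p = 0.123) and Lcn2 at 2.40 ± 0.88 (adjusted p = 0.132). Elane was at 1.28 ± 0.70, Camp at 1.09 ± 0.58, Mmp8 at 0.86 ± 0.66, Mmp9 at 0.34 ± 0.83, Fpr1 at 0.31 ± 0.63 and Mpo at -1.10 ± 1.35. Saline control 19 decided the calls. Without it 4 members were called, S100a8 at 2.93 (adjusted p = 0.0158), S100a9 at 2.76 (adjusted p = 0.0148), Elane at 2.27 (adjusted p = 0.0359) and Csf3r at 2.28 (adjusted p = 0.00352), as were 2096 genes.

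Whether the AMPH difference at 22.5 C was unlike that at 16 C was tested in 1 fit over the 59 rats. This fit had no code term. It took in the AMPH hyperthermic rats from codes and ID forms that no saline control had. No member was called by edgeR or DESeq2, against 0.143% of 14000 genes by edgeR, and 4 members were under 0.05 before adjustment. The difference of differences was 1.42 ± 0.45 for Csf3r (adjusted p = 0.185), 1.51 ± 0.68 for S100a8 (adjusted p = 0.375) and 2.84 ± 1.21 for Lcn2 (adjusted p = 0.352). It was 1.44 ± 0.60 for S100a9 (adjusted p = 0.337), 1.26 ± 0.74 for Camp, 1.09 ± 0.64 for Elane, 0.97 ± 0.70 for Mmp9, 0.50 ± 0.65 for Mmp8, 0.36 ± 0.62 for Fpr1 and -2.30 ± 1.43 for Mpo. Without saline control 19, Csf3r was called at 2.28 (adjusted p = 0.00591) and S100a9 at 2.39 (adjusted p = 0.0349). How many of all genes passed in that fit is not given here.

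Ratios of 2 members within a rat were also formed, since they are free of the size factors. These ratios were chosen after the values had been seen, so they are a description with no test. The log2 ratio of S100a8 to Csf3r was 1.22, 1.67, 2.68 and 2.94 in saline controls 17, 18, 19 and 21, and 2.86, 3.01, 3.35, 3.11 and 2.52 in the cool saline rats. It ran from 1.57 to 3.65 in the AMPH cool rats (median 2.21), from 0.45 to 3.62 in the AMPH hyperthermic rats (median 1.66) and from -0.15 to 1.37 in the heat rats (median 0.77). All 15 heat rats thus lay below every AMPH cool and every cool saline rat. Of 11431 genes, 0.359% had a ratio to Csf3r that lay higher in every AMPH cool than in every heat rat, and of 11461 genes 0.611% lay higher in every cool saline than in every heat rat, S100a8 being among both. Within codes the ratio was higher in AMPH cool than in heat rats in 5 of 5 codes, by 1.30 to 2.58, and higher in AMPH hyperthermic than in heat rats in 7 of 7 codes, by 0.417 to 2.06.

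The partners of calprotectin also shifted against each other. The log2 ratio of S100a8 to S100a9 had a median of -1.38 in the heat rats (range -2.01 to -1.04), against -1.07 in the saline controls (-1.24 to -0.889), -0.90 in cool saline (-1.02 to -0.82), -0.996 in AMPH cool (-1.11 to -0.783) and -1.01 in AMPH hyperthermic rats (-1.41 to -0.459). The heat range overlapped with those of the other groups except cool saline, whose lowest rat (-1.025) lay next to the highest heat rat (-1.037). Of 11461 genes, 0.00873%, which is S100a8 alone, had a higher ratio to S100a9 in every cool saline than in every heat rat, while 3132 genes had a lower one. For Camp over Fpr1, a specific granule gene against a receptor, the medians were 1.37 in the saline controls (1.01 to 1.83), 2.11 in cool saline (1.41 to 2.41), -0.03 in AMPH cool (-0.572 to 1.23), -0.05 in AMPH hyperthermic (-1.19 to 3.68) and -1.06 in heat rats (-1.76 to -0.04). Both saline groups kept at or below 22.5 C lay above every heat rat, as did 0.644% of 11490 genes against Fpr1 for the saline controls and 2.02% of 11461 for the cool saline rats. The highest AMPH hyperthermic rat in this ratio was rat 21.

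**Figure D3:**
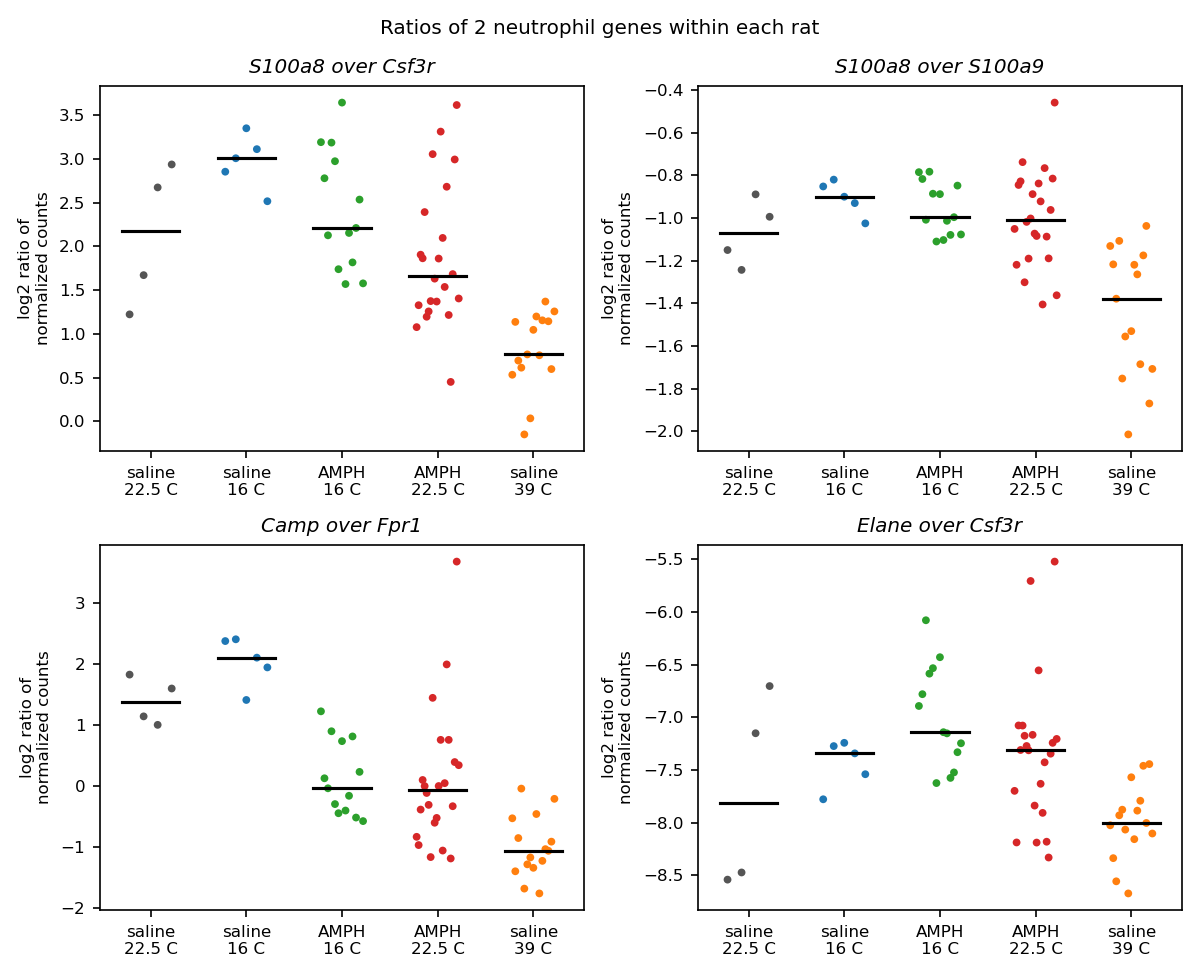
Log2 ratios of normalized counts of 2 genes within each of 59 rats, 1 point per rat, with group medians as black lines. For S100a8 over Csf3r the saline 39 C rats lie between -0.15 and 1.37, below all rats of both 16 C groups, and for Camp over Fpr1 their median is -1.06.

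Elane over Csf3r was lowest in the heat rats as well, with a median of -8.00 (range -8.67 to -7.44), against -7.14 in the AMPH cool rats (-7.62 to -6.08). Mmp8 over Csf3r had medians of 0.02 in AMPH cool and -1.03 in heat rats. Mmp8 over Mmp9 had its highest median in AMPH cool, 3.18, and its lowest in heat, 1.65. Fpr1 over Csf3r went the other way, with medians of -5.37 in cool saline, -4.50 in AMPH cool and -4.13 in heat rats. Against Csf3r, the medians of S100a8, S100a9, Elane, Camp and Mmp8 were thus lowest in the heat rats, and those of Lcn2, Mmp9 and Fpr1 were not.

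Relations between members across rats were examined in the 3 larger groups for 5 pairs, 15 relations in all, on log2(normalized count + 1) with permutation tests of 100000 resamples and adjustment over the 15. Of these, 9 had an adjusted Pearson p under 0.05. S100a8 and S100a9 moved together in heat (r = 0.926, rho = 0.904), AMPH hyperthermic (r = 0.978, rho = 0.955) and AMPH cool rats (r = 0.994, rho = 0.984). The Pearson permutation p was 1e-05 in each, the smallest the resamples can give (adjusted 5e-05), and the Spearman permutation p was at most 2e-05 (adjusted at most 0.0001). Without the 2 rats farthest from the median, r was 0.883, 0.956 and 0.991, and centred within codes it was 0.952, 0.981 and 0.992. Here and for the pairs below, the distance was taken on the first gene of the pair only. A rat far out in the second gene alone was therefore kept.

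Camp and Mmp8, whose products share the specific granule, were related in heat rats (r = 0.913, permutation p = 2e-05, adjusted 7.5e-05, rho = 0.857, permutation p = 8e-05, adjusted 0.0003), with r = 0.921 without the 2 farthest rats and 0.953 within codes. They were also related in AMPH cool rats (r = 0.822, permutation p = 0.00055, adjusted 0.00165, rho = 0.747, permutation p = 0.005, adjusted 0.0125), where r was 0.702 without the 2 farthest rats but 0.602 within codes (adjusted permutation p = 0.0901). Within codes rho was 0.745 (permutation p = 0.0169, adjusted 0.0282), so this relation passed there by rank and not by Pearson's r. In AMPH hyperthermic rats r was 0.34 (permutation p = 0.121, adjusted 0.165, rho = 0.4, permutation p = 0.0663, adjusted 0.0904), -0.087 without rats 16 and 17, and 0.835 (adjusted permutation p = 0.000625) within codes over the 16 rats that shared theirs. Rat 21 had a Camp of 3611 beside the lowest Mmp8 of the group, 1701. It stayed in when rats 16 and 17 were left out and, alone in its code, was not among the 16. Its part in these values was not tested.

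Csf3r and Fpr1 were related in heat (r = 0.724, permutation p = 0.00236, adjusted 0.0059, rho = 0.764, permutation p = 0.00148, adjusted 0.00444) and AMPH hyperthermic rats (r = 0.652, permutation p = 0.0122, adjusted 0.0204, rho = 0.467, permutation p = 0.0295, adjusted 0.0546). Without the 2 farthest rats, which were rats 9 and 7 in heat and rats 18 and 17 in AMPH hyperthermic, r was 0.5 (adjusted permutation p = 0.179) and 0.181 (adjusted permutation p = 0.613). The ranks moved less, with rho = 0.643 (permutation p = 0.0213, adjusted 0.0533) and 0.447 (permutation p = 0.0498, adjusted 0.0963), and neither measure passed after adjustment. Within codes r was 0.845 and 0.836. In AMPH cool rats r was 0.394 (permutation p = 0.184, adjusted 0.23, rho = 0.626, permutation p = 0.0253, adjusted 0.0541). Camp and Csf3r were related in heat rats (r = 0.666, permutation p = 0.00744, adjusted 0.0139, rho = 0.557, permutation p = 0.0328, adjusted 0.0546), with r = 0.781 without the 2 farthest rats and 0.917 within codes. Their r was 0.373 in AMPH hyperthermic and 0.21 in AMPH cool rats, neither under the threshold, and the difference between groups was not tested. The azurophil pair Elane and Mpo had r = -0.274 in heat and 0.198 in AMPH hyperthermic rats, neither under the threshold. In AMPH cool rats r was -0.745 (permutation p = 0.00367, adjusted 0.00786, rho = -0.544, permutation p = 0.0584, adjusted 0.0876), which became -0.513 (adjusted permutation p = 0.201) without rats 13 and 7, on which it rested, and was -0.801 within codes.

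**Figure D4:**
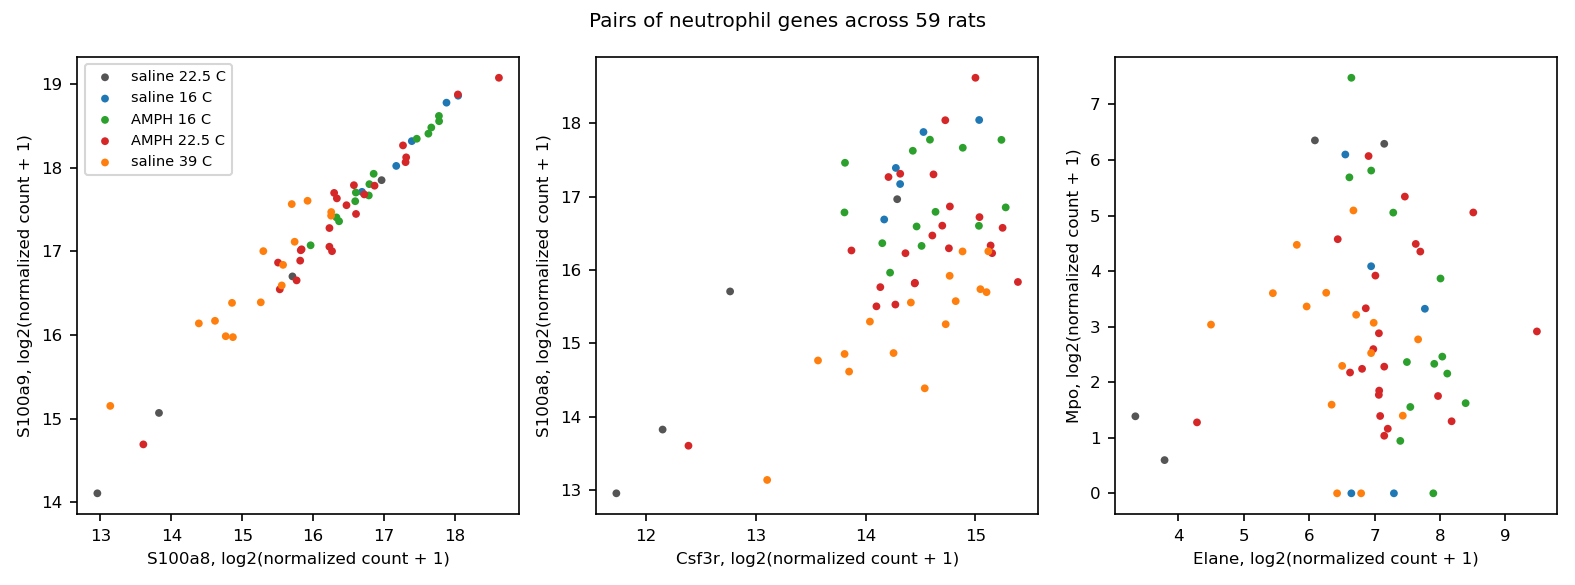
Log2(normalized count + 1) of 3 pairs of genes in 59 rats, 1 point per rat, coloured by group. S100a8 and S100a9 rise together with r between 0.926 and 0.994 in the 3 larger groups, the saline 39 C rats sit low in S100a8 for their Csf3r (median log2 ratio 0.77), and Elane and Mpo form no line.

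The genes most like 4 of the members were sought over the 59 rats after each group was centred on its mean, among genes that averaged 100 or more normalized counts. For S100a9 they were S100a8 (r = 0.974), Pglyrp1, a peptidoglycan-binding granule protein (0.942), Ceacam10, listed under 2 identifiers (0.931 each), and Aqp9, a glycerol channel (0.93). For Camp they were the resistin-like genes Retnlg (0.929) and Retnla (0.907), then S100a9 (0.857), Pglyrp1 (0.845) and S100a8 (0.836). Csf3r was most like MGC112715 (0.897), Rara (0.897), Sox13 (0.894), Rufy4 (0.892) and Ifngr2 (0.891), of which Rara encodes a retinoic acid receptor and Ifngr2 a chain of the interferon gamma receptor. For Mpo, itself near 0 in most rats, they were Sparc (0.53), Fabp4 (0.521), Cxcr7 (0.482), Hspb1 (0.438) and Bag3 (0.431). None of them is a neutrophil granule gene. The limit of 100 kept out scarce azurophil genes such as Prtn3 and Ctsg, which therefore could not be found. All of these values share the rats' size factors and depth. Among the members, S100a8 and S100a9 were the most alike pair, Mmp8 and Fpr1 came next (0.899), and S100a8 and Mpo were the least alike (-0.027).

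Other genes of neutrophil granules, receptors, NADPH oxidase and granulopoiesis were counted from lists of 41, of which 38 were listed for some rat and 28 to 30 were tested in a comparison. None was called in either AMPH against saline comparison, in AMPH hyperthermic against heat, between the saline groups or in the difference of differences. In heat against saline control 4 were called higher and 1 lower of 30, a share near the 16.5% of all genes called there. The higher ones were Cxcr4, the receptor that holds neutrophils in the marrow (1.12 ± 0.36, adjusted p = 0.0386), the granulocyte transcription factors Cebpa (1.84 ± 0.61, adjusted p = 0.0442) and Cebpb (1.73 ± 0.57, adjusted p = 0.0442) and Runx1 (0.73 ± 0.21, adjusted p = 0.0265). Gfi1, a repressor needed for neutrophil development, was lower (-0.79 ± 0.27, adjusted p = 0.0483).

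In AMPH hyperthermic against AMPH cool rats 4 were higher and 2 lower of 29, beside 15.9% of all genes called. Cxcr2, the chemokine receptor that draws neutrophils into the blood, was lower (-0.67 ± 0.17, adjusted p = 0.0137) and Cxcr4 higher (0.72 ± 0.16, adjusted p = 0.00695). The NADPH oxidase subunit gene Cybb (0.67 ± 0.18, adjusted p = 0.0204), Cebpa (0.74 ± 0.22, adjusted p = 0.0298) and the defensin gene Np4 (2.09 ± 0.68, adjusted p = 0.0449) were higher, and Gfi1 was lower (-0.70 ± 0.21, adjusted p = 0.0283). Np4 was scarce, with medians of 1.21 normalized counts in all AMPH cool rats kept (highest 26.8) and 13.1 in all AMPH hyperthermic rats (highest 328.4). In the same comparison 3 of 6 monocyte markers were called higher, the only 3 of them with a positive fold change. So was 1 of 5 platelet markers, all 5 of them positive. Called lower were 1 of 6 natural killer identifiers, 1 of 4 eosinophil or basophil markers and 2 of 4 erythroid markers. Of these lists only 1 eosinophil or basophil marker was positive. The part of these cells was not tested. No marker of another cell type was called in either AMPH against saline comparison, in AMPH hyperthermic against heat or between the saline groups, and 1 platelet marker was called higher in the difference of differences. The summed erythroid level ran from 440143 to 12880824 normalized counts over all groups and that of eosinophils and basophils from 50.7 to 3414.

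In AMPH cool against heat rats 3 were higher and 8 lower of 29, beside 12.5% of all genes called, with a median of -0.303 against -0.013 for all genes. The higher ones were the protease inhibitor gene Serpinb1a (2.29 ± 0.49, adjusted p = 0.00589), Olfm4, a specific granule protein found in some neutrophils only (1.86 ± 0.56, adjusted p = 0.0411), and the leukotriene receptor gene Ltb4r (1.60 ± 0.44, adjusted p = 0.0262). The lower ones included the NADPH oxidase genes Cybb, at -0.85 ± 0.17 (adjusted p = 0.00365), and Ncf1, at -0.61 ± 0.13 (adjusted p = 0.0054). Cebpa was at -1.47 ± 0.20 (adjusted p = 0.000278), Runx1 at -0.47 ± 0.14 (adjusted p = 0.0444) and Cxcr4 at -1.02 ± 0.20 (adjusted p = 0.004). Ceacam1 was at -1.08 ± 0.32 (adjusted p = 0.0361). The specific granule list, in which Ltb4r is a receptor, was split, since Ngp (-1.02 ± 0.22, adjusted p = 0.00583) and Cebpe, the factor that drives specific granule genes (-0.87 ± 0.25, adjusted p = 0.0325), were lower where Olfm4 and Ltb4r were higher.

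**Figure D5:**
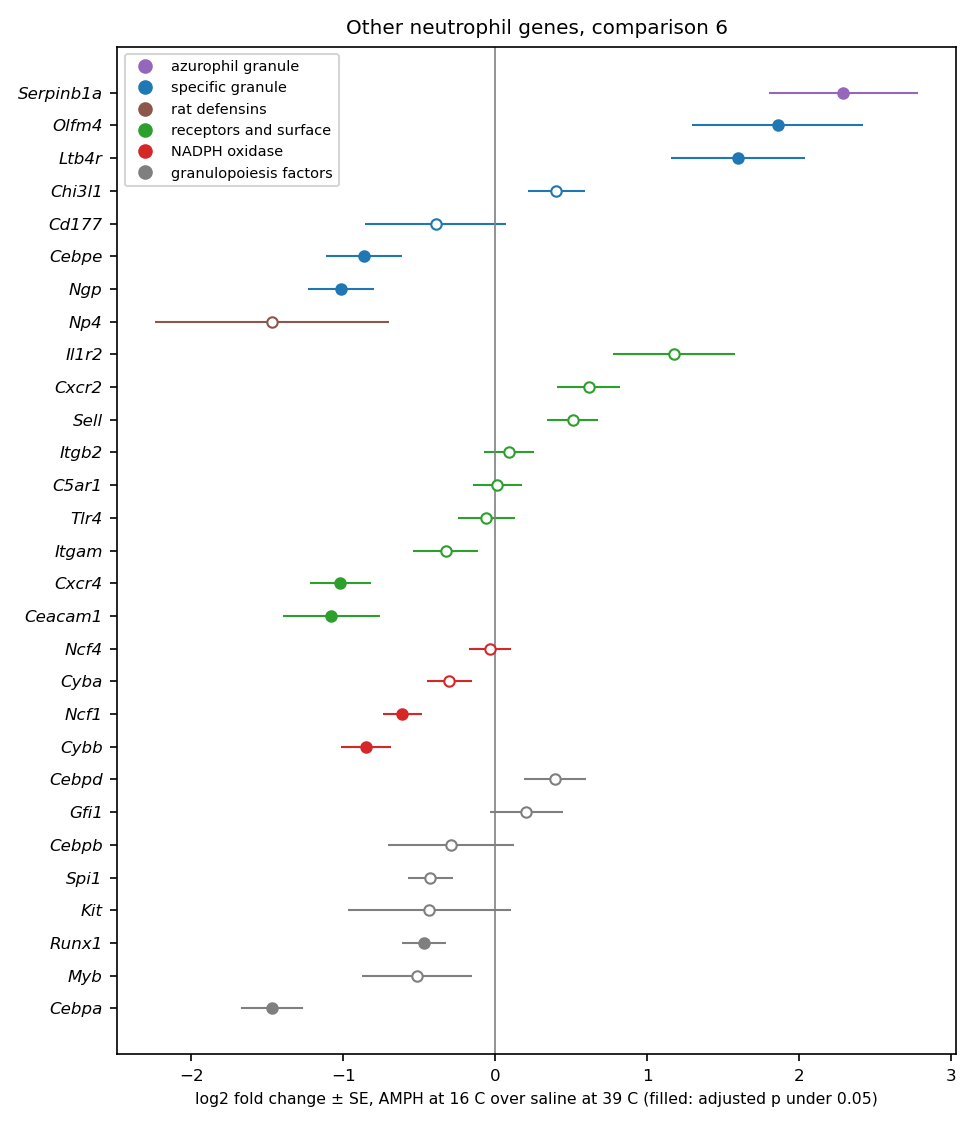
Log2 fold changes with standard errors of 29 other neutrophil genes between AMPH cool and heat rats, from edgeR, coloured by list. Filled points have an adjusted p under 0.05, and they hold 3 genes above 0, led by Serpinb1a at 2.29, and 8 below 0, led by Cebpa at -1.47.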

How the data were processed

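Blood RNA of 64 rats was sequenced as paired 51-base reads from globin-depleted, stranded mRNA libraries. Per the study's methods and the submitters' processing notes, the authors used CASAVA 1.8.2, aligned with Bowtie 0.12.9 to rat transcripts (rn5, Ensembl release 70) and estimated counts with RSEM 1.2.0. The deposited values are expected counts per gene, one table per rat, without normalization, and RSEM shares reads between similar genes by estimate. The tables came in 6 gene lists, with 26405 genes in any and 17366 in all, and of their rows 6609 had no symbol and 0 lacked an identifier. Totals per rat ran from 19055615 to 40530319, and counting error was small beside the spread between rats except for Mpo.

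Expected counts were rounded here. Groups were taken from the labels, and 5 rats were dropped because Mb exceeded 5000 counts. Genes with at least 10 counts in as many rats as the smallest group were tested with edgeR 4.0.16 (R 4.3.3) with TMM scaling, and a Benjamini-Hochberg adjusted p under 0.05 was called. Comparisons 1 and 2 set AMPH against saline at 22.5 C and 16 C, and 3 set heat against saline control. Comparison 4 set AMPH hyperthermic against AMPH cool, 5 and 6 set these in turn against heat, and 7 set cool saline against saline control. Comparison 8 was the AMPH difference at 22.5 C minus that at 16 C. It used all 22 AMPH hyperthermic rats, where comparison 1 used 8, so it is not 1 minus 2. Comparisons 4 to 6 used codes held by both groups, with the code as a term. Levels were divided by DESeq2 1.42.0 size factors. Correlations, ratios and motif searches used Python 3.11.15, numpy 2.4.6, pandas 2.3.3, scipy 1.17.1 and matplotlib 3.10.9. Backgrounds of ratios were genes that averaged 10 or more normalized counts and were at 0 in no rat compared. Scripts were tested on simulated data.

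The 10 members, the gene and marker lists and the pairs were chosen with earlier results of these data known. All members are named in each comparison, other neutrophil genes where they passed the threshold (1 gene of these lists is not reported here), and for likeness the 5 genes of highest r. Alternatives were RLE scaling, DESeq2, no filter, the Mb criterion lifted, 1 fit over 5 groups, other choices of rats and codes, the replicate number as a block and fits short of 1 control. Fits short of 1 AMPH rat in comparison 1, the block's rats without the block, and fits without code V06504 were chosen after seeing the data. The study's replacement of outlying transcripts was not repeated.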

Additional observations from a re-analysis of the deposited data

Results flagged for a closer look

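In the cool saline rats, Mpo in rat 1 (67.55 normalized counts) stood apart from the others, with a gap to its nearest neighbour of 0.763 of the group's range, where 0.71 is the limit for 5 rats. Chance gives such a gap in about 1 of 20 sets, and 20 sets of a gene in a group were examined.

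Among the rats left out for high Mb counts, some members lay above the highest control at the same room temperature, or above the highest saline control for heat. AMPH cool rat 2 had 33289 normalized counts of Mmp8, against 27005 in the highest cool saline rat, and 1386 of Fpr1, against 730.3. AMPH cool rat 12 had 329.9 of Elane, against 217.1. Heat rat 12 had 176.8 of Elane, against 140.8 in the highest saline control, 20627 of Csf3r, against 20003, and 1600 of Fpr1, against 899.7.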

How the results depend on the processing

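Over 77 pairs of a member and a comparison, 891 alternative values were computed. Of these 802 kept their direction and side of the threshold, 44 passed it newly, 4 no longer passed, all of Csf3r in heat against saline control, and 41 changed sign, none of them called. S100a8 and S100a9 in AMPH cool against heat remained called in every alternative.

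The number of members called moved as follows, with that of all genes called beside it where given. Where it is not given, the members called cannot be set against the share of all genes, and nothing particular to the members is read from them. DESeq2 called 1 in comparisons 1, 2, 5 and 7, 2 in comparison 3 and 3 in comparisons 4 and 6. Of all genes it called 202, 407, 3364, 2418, 262, 2140 and 1376 in comparisons 1 to 7. One fit over 5 groups called 3 in comparison 1, 2 in comparison 3 and 4 in comparisons 5 and 6. Of all genes this fit called 1825 in comparison 1 and 3673 in comparison 3. With the Mb criterion lifted 3 were called in comparison 3 (4351 genes) and 1 in comparisons 4 (1651 genes) and 8. Without a filter 0 were called in comparison 3 (1796 genes). All 22 AMPH rats gave 1 in comparison 1 (804 genes). All rats without a code term gave 1 in comparison 5 and 5 in comparison 6. Dropping code V06504 gave 2 in comparison 3 (2220 genes). Leaving out 1 control gave 0 to 2 in comparison 3 (270 to 1978 genes), 0 to 4 in comparison 7 (4 without saline control 19, 2096 genes) and 0 to 2 in comparison 8.

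The replicate numbers were not taken to pair the rats. Same-numbered rats correlated above 0.1 in 2 of 4, 0 of 4, 6 of 13, 7 of 15 and 4 of 13 pairs in comparisons 1, 2, 4, 5 and 6. Of them 2, 1, 0, 2 and 1 correlated best with their own number. Their mean r was 0.173, -0.061, 0.025, 0.101 and 0.018, against -0.061, -0.008, 0.001, -0.01 and 0 for other numbers. Whether the numbers pair the rats in some comparisons was not tested. With the replicate block, members called were 1 in comparison 2 (Elane, also 1 for the same rats without the block) and 1 in comparison 4 (Mmp9). They were 2 in comparison 5 (S100a8, S100a9) and 5 in comparison 6. Of all genes the block fits called 116 in comparison 2 and 2329 in comparison 4. The number for comparisons 5 and 6 is not given here, so the members called there cannot be set against it. These fits use other rats than the main ones. No paired analysis was possible because fewer than 2 numbers were shared in comparison 3, and none was planned for 7 and 8.

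Sign changes of values not called were these, on the log2 scale. With the block, Mmp8 became -0.09 in comparison 1; S100a8 0.11, S100a9 0.03, Lcn2 1.69 and Mmp9 0.62 in comparison 2 (0.12, 0.02, 1.30 and 0.57 for the same rats without it); Lcn2 0.81 and Fpr1 0.16 in comparison 4; and Csf3r 0.18 in comparison 6. In 1 fit over 5 groups, comparison 4 gave Camp 0.19, Lcn2 0.46, Csf3r 0.03 and Fpr1 0.06, and comparison 6 Csf3r 0.12. All rats without a code term gave 0.19, 0.46, 0.04 and 0.06 for the same genes, and Csf3r 0.11 in comparison 6. The Mb criterion lifted gave Lcn2 0.02 in comparison 4 and Csf3r -0.0013 in comparison 5, where Csf3r was also -0.00055 with RLE scaling, -0.00053 with DESeq2 and -0.08 without code V06504 (Mmp9 -0.17). Leaving out 1 control gave ranges across 0 for Lcn2 (-0.72 to 0.08), Mmp8 (-0.0034 to 0.25) and Mmp9 (-0.40 to 0.11) in comparison 2, S100a8 (-0.65 to 0.70), S100a9 (-0.19 to 1.06), Camp (-0.85 to 0.01) and Mmp8 (-0.22 to 1.04) in comparison 3, and Mmp9 (-0.02 to 1.51) and Fpr1 (-0.03 to 1.2) in comparison 7. The causes were not tested.

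The main limits are the 4 saline controls, which differ widely among themselves, the codes that separate controls from heat rats, blood cell counts not analysed here, and the few counts of Mpo. Of the 15 relations, 9 passed by Pearson's r in the main setting, within codes and with a pseudocount of 10, and 6 without the 2 farthest rats. The 9 within codes are another set, since Camp with Mmp8 dropped out in AMPH cool (adjusted p = 0.0901) and came in for AMPH hyperthermic rats (adjusted p = 0.000625).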
